A study of Macaca mulatta with 4 samples.

Results

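The 8 genes described here are platelet genes and the gene of thrombospondin-1: PPBP, PF4, GP9, ITGA2B, TUBB1, TREML1, RGS18 and THBS1. They were chosen by their CPM, their share of positive cells and their co-detection in these same libraries, so those values are a description with no test. All 8 were found, by symbol, among the 15354 gene rows of the deposited tables. The first 6 are read together below as the platelet genes. RGS18 and THBS1 are given apart, because monocytes are known to express both.

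The data are single-cell RNA sequencing (10x Genomics 5' V1 chemistry) of peripheral blood mononuclear cells of rhesus macaque, from a study of human stem cell-derived islets grafted into monkeys. Each group was 1 library. The Pre-IS library came from blood drawn ahead of any immunosuppression. The Post-IS library came from blood drawn once immunosuppression had been given but ahead of the graft, and the 4 wpt and 8 wpt libraries from blood drawn 4 and 8 weeks after the graft. The labels name neither the drugs nor the animals, so it is not known whether 1 animal gave all 4 libraries. Single libraries allow no test between groups, and the intervals given are 95% intervals that cover counting error only.

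Platelets are fragments shed by megakaryocytes. They carry RNA but no nucleus, and they release chemokines and adhesion proteins from their granules when activated. Activated platelets bind to monocytes in blood through P-selectin and its ligand, and the pair can then enter a single droplet and be read under 1 cell barcode. Thrombospondin-1 is a large adhesive glycoprotein that is stored in platelet alpha granules and is also made by activated monocytes. It binds the surface proteins CD36 and CD47.

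Of 6993 cells under the authors' 9 cell labels, the Pre-IS library held 1928, Post-IS 603, 4 wpt 1882 and 8 wpt 2580. Median depth per cell was 1563 UMIs (unique molecular identifiers, each 1 captured RNA molecule) in Pre-IS, 1168 in Post-IS, 3551 at 4 wpt and 1877 at 8 wpt. Cells labelled CD14+ monocyte numbered 256, 329, 312 and 346 in that order, or 13.3%, 54.6%, 16.6% and 13.4% of their libraries. Over the 6 pairs of libraries 25 barcodes were shared, at most 12 in any pair. Levels below are CPM, the UMIs of a gene per 1000000 UMIs of all cells with a label in a library. Over all cells the 8 genes gave 494 UMIs of PPBP, 141 of PF4, 16 of GP9, 19 of ITGA2B, 37 of TUBB1, 26 of TREML1, 1222 of RGS18 and 193 of THBS1, so GP9, ITGA2B, TUBB1 and TREML1 are described by counts.

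**Figure D1:**
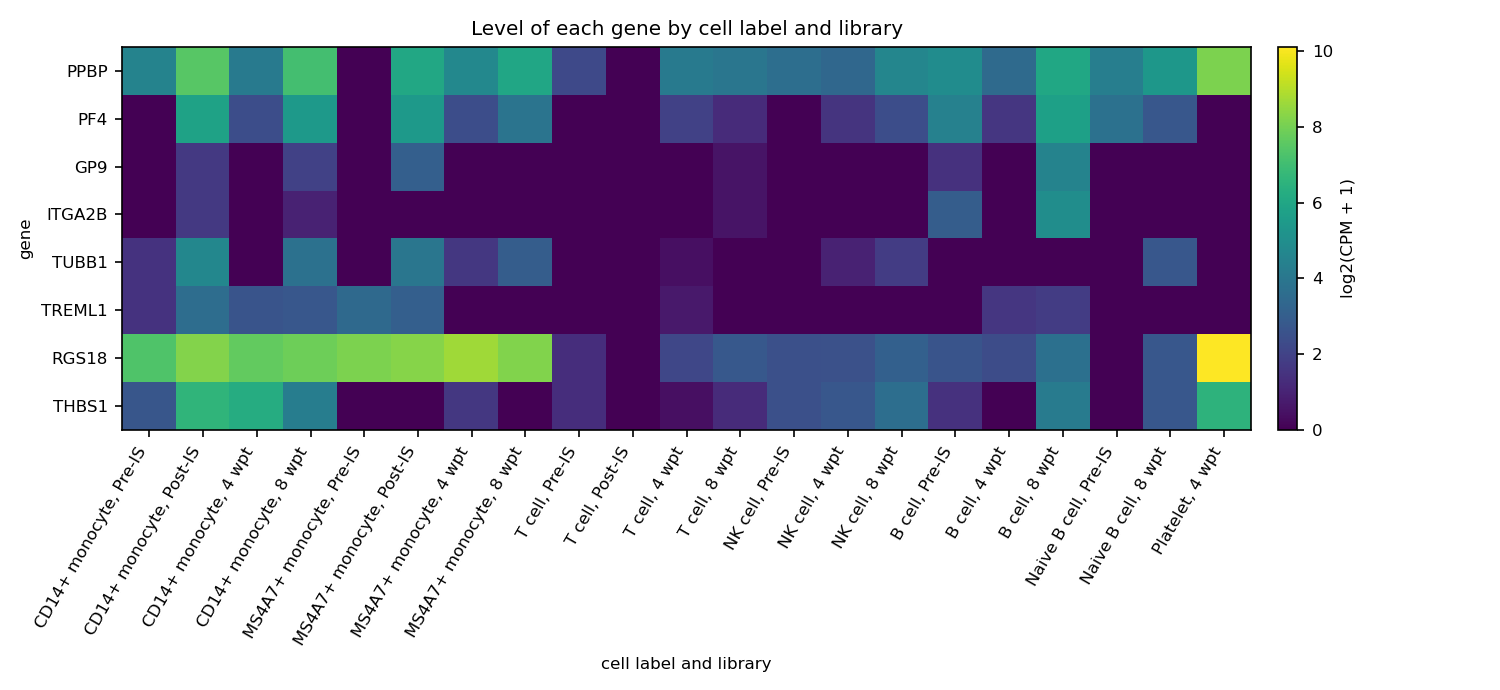
Level of each of the 8 genes, as log2(CPM + 1), by cell label and library. Labels with at least 50 cells in the library are shown, with the 12 cells labelled Platelet at the right end. The CD14+ monocyte columns of Post-IS and 8 wpt are the brightest monocyte columns for PPBP and PF4, THBS1 is bright in the CD14+ columns of Post-IS and 4 wpt, and RGS18 is bright in every monocyte column.

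Among CD14+ monocytes the platelet chemokines were highest in the Post-IS and 8 wpt libraries. PPBP encodes pro-platelet basic protein, the precursor of a granule chemokine that attracts neutrophils. In CD14+ monocytes it stood at 21.9 CPM (exact Poisson interval 11.3 to 38.2, 12 UMIs) in Pre-IS, 176 CPM (139 to 219, 79 UMIs) in Post-IS, 17.0 CPM (10.4 to 26.3, 20 UMIs) at 4 wpt and 136 CPM (114 to 160, 141 UMIs) at 8 wpt. The Post-IS and 8 wpt intervals lie above those of the other libraries. PPBP was thus 8.04-fold higher in Post-IS than in Pre-IS CD14+ monocytes (exact conditional interval 4.36 to 16.2), and 7.97-fold higher at 8 wpt than at 4 wpt (4.97 to 13.5). PF4 encodes platelet factor 4, a chemokine that binds heparin, and its gene lies beside PPBP. It gave 0 UMIs in Pre-IS, where the exact interval reaches up to 6.73 CPM. It then gave 25 UMIs (55.7 CPM) in Post-IS, 5 UMIs (4.25 CPM) at 4 wpt and 44 UMIs (42.3 CPM) at 8 wpt. PF4 was at least 10.2-fold higher in Post-IS than in Pre-IS CD14+ monocytes, with Pre-IS at a floor of 3 counts, and 9.95-fold higher at 8 wpt than at 4 wpt (3.96 to 32.2). Both chemokines were thus high in Post-IS and 8 wpt and low in Pre-IS and at 4 wpt.

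Receptor and structural genes were sparse, and all but TREML1 gave nearly all of their UMIs in the same libraries. TUBB1, the beta tubulin of the platelet's marginal band, gave 1, 11, 0 and 13 UMIs in CD14+ monocytes of Pre-IS, Post-IS, 4 wpt and 8 wpt. Its ratio of Post-IS to Pre-IS was 13.4 (1.95 to 579), on 1 UMI in Pre-IS. At 4 wpt it was at least 9.61-fold lower than in Post-IS, against a floor of 3 counts. GP9, a subunit of the von Willebrand factor receptor, gave 0, 1, 0 and 3 UMIs, and ITGA2B, the alpha chain of the fibrinogen receptor, gave 0, 1, 0 and 1. TREML1, a receptor stored in platelet granules, gave 1, 5, 6 and 6 UMIs, or 1.82, 11.1, 5.10 and 5.77 CPM. On so few UMIs its course cannot be set against that of the chemokines. At these counts no difference in GP9, ITGA2B or TREML1 was detectable.

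Summed over the 6 platelet genes, CD14+ monocytes held 25.5 CPM (14.0 to 42.9, 14 UMIs) in Pre-IS, 272 CPM (226 to 325, 122 UMIs) in Post-IS, 26.4 CPM (17.9 to 37.4, 31 UMIs) at 4 wpt and 200.1 CPM (174 to 229, 208 UMIs) at 8 wpt. The sum was 10.6-fold higher in Post-IS than in Pre-IS (6.11 to 20.1) and 10.3-fold lower at 4 wpt than in Post-IS (ratio 0.0970, 0.0632 to 0.145). It was 7.59-fold higher at 8 wpt than at 4 wpt (5.19 to 11.5). Between 4 wpt and Pre-IS the ratio was 1.03 (0.533 to 2.10), and between 8 wpt and Post-IS it was 0.736 (0.586 to 0.928). The sum was therefore high, low and high again over the last 3 libraries. Red cell markers, as a sign of RNA from other cells, stood in the same cells at 544, 522, 1868 and 420 CPM in time order, highest at 4 wpt. That peak was not library-wide. From Pre-IS to 4 wpt they went from 127 to 55.2 CPM in T cells and from 250 to 151 CPM in MS4A7+ monocytes. In NK cells they rose from 172 to 596 CPM. Their part in the result was not tested.

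**Figure D2:**
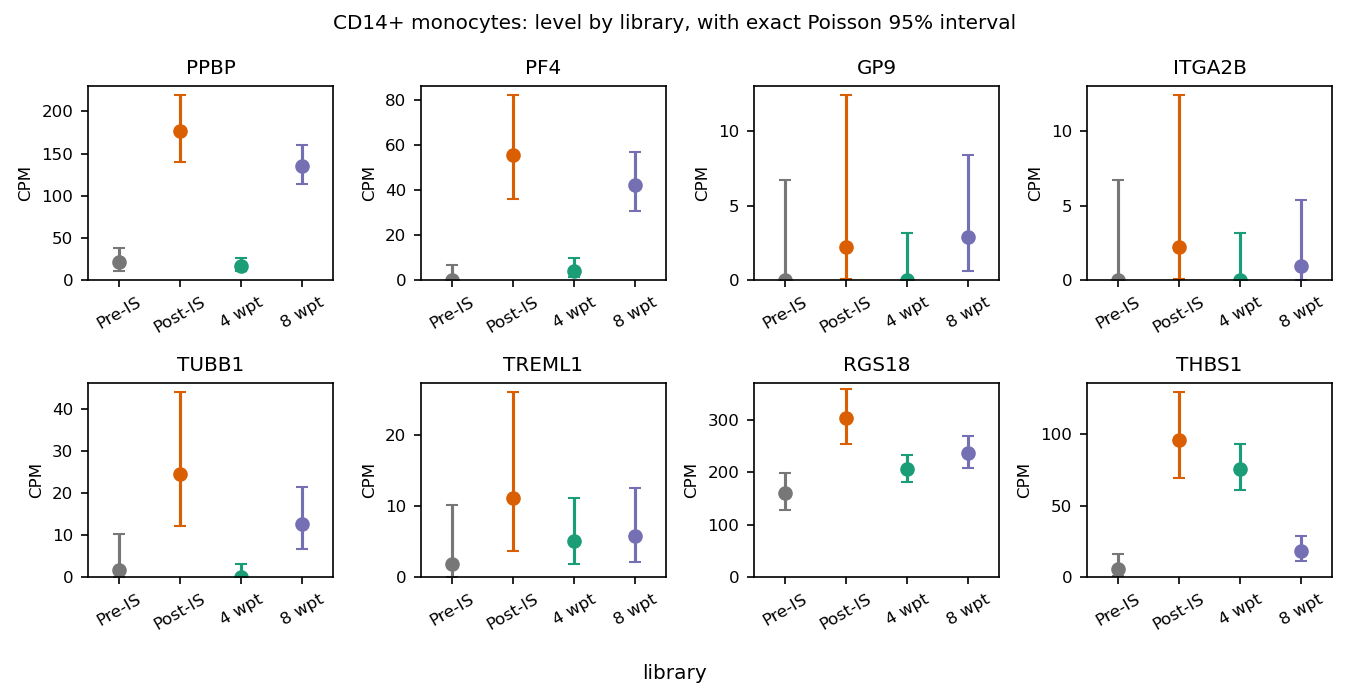
CPM of each of the 8 genes in CD14+ monocytes of the 4 libraries, 1 panel per gene, with exact Poisson 95% intervals as bars. PPBP and PF4 are high in Post-IS and 8 wpt, THBS1 is high in Post-IS and 4 wpt, and RGS18 lies between 161 and 303 CPM throughout.

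THBS1 followed another course. In CD14+ monocytes it stood at 5.47 CPM (1.13 to 16.0, 3 UMIs) in Pre-IS, 95.8 CPM (69.4 to 129, 43 UMIs) in Post-IS, 75.7 CPM (60.8 to 93.2, 89 UMIs) at 4 wpt and 18.3 CPM (11.0 to 28.6, 19 UMIs) at 8 wpt. The Post-IS to Pre-IS ratio was 17.5 (5.61 to 88.2), on 3 UMIs in Pre-IS, and 8.63 with cells thinned to 1000 UMIs. THBS1 at 4 wpt was 0.790 of its Post-IS level (0.543 to 1.16), an interval that holds 1, and its log2 value of -0.34 became 0.04 with cells weighted equally and 0.36 with cells thinned to 1000 UMIs, while the platelet gene sum was 10.3-fold lower. At 8 wpt THBS1 was 4.14-fold lower than at 4 wpt (ratio 0.241, 0.139 to 0.400), while the sum was 7.59-fold higher. Platelet genes and THBS1 were thus both high in Post-IS and ran in opposite directions between 4 and 8 wpt.

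RGS18 encodes a regulator of G protein signalling found in megakaryocytes, platelets and myeloid cells. It stood at 161 CPM (129 to 198, 88 UMIs) in Pre-IS, 303 CPM (254 to 359, 136 UMIs) in Post-IS, 206 CPM (181 to 233, 242 UMIs) at 4 wpt and 237 CPM (208 to 268, 246 UMIs) at 8 wpt. The Post-IS to Pre-IS ratio was 1.89 (1.43 to 2.50) and the 8 wpt to 4 wpt ratio 1.15 (0.959 to 1.38). RGS18 differed far less between these libraries than the platelet gene sum.

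A gene was counted as higher or lower where it was at least 2-fold so with at least 20 UMIs over both libraries. In Post-IS over Pre-IS CD14+ monocytes 3 of 4 measured members (PPBP, PF4 and THBS1, not RGS18) were higher and none lower, where 5.55% of 5152 measured genes were higher and 4.13% lower. In 4 wpt over Post-IS none of 4 was higher and 2 (PPBP and PF4) were lower, against 5.56% and 5.23% of all genes. In 8 wpt over Post-IS none of 5 was higher and THBS1 was lower, against 4.99% and 4.3%. In 8 wpt over 4 wpt PPBP and PF4, 2 of 4, were higher and THBS1 was lower, against 2.44% and 2.51%. In 4 wpt over Pre-IS THBS1, 1 of 3, was higher and none lower, against 4.88% and 3.17%. In 8 wpt over Pre-IS PPBP, PF4 and THBS1, 3 of 4, were higher and none lower, against 3.73% and 2.67%. The members were chosen with these contrasts known, so nothing is read from their counts. THBS1 at 8 wpt over Pre-IS was 3.34 (0.983 to 17.6), on 3 Pre-IS UMIs.

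The UMIs sat in a minority of CD14+ monocytes. A UMI of the 6 genes was found in 10 of 256 cells (3.91%, exact Clopper-Pearson interval 1.89 to 7.07) in Pre-IS, 52 of 329 (15.8%, 12.04 to 20.2) in Post-IS, 16 of 312 (5.13%, 2.96 to 8.19) at 4 wpt and 54 of 346 (15.6%, 11.9 to 19.9) at 8 wpt. T cells are not known to express these genes, and their shares were 0.476% (0.130 to 1.21), 0%, 3.71% (2.57 to 5.17) and 1.79% (1.11 to 2.72). The 0 of 115 Post-IS T cells were put at a floor of 2.61%, set by 3 counts, which is tighter than an exact limit. Median depth was 2058.5, 1196, 3190 and 2853.5 UMIs in CD14+ monocytes and 1526, 1257, 3626 and 1810 UMIs in T cells. Thinned to 1000 UMIs per cell, the expected shares were 2.64%, 13.3%, 2.42% and 9.15% in CD14+ monocytes and 0.406%, 0%, 1.83% and 1.31% in T cells. Cells below 1000 UMIs were left out, which kept 221, 187, 283 and 334 CD14+ monocytes and 753, 85, 854 and 1122 T cells. At 4 wpt the interval of the CD14+ share overlapped that of T cells, so no difference is read there. For Post-IS and 8 wpt it lay above the T cell share beyond counting error, at the deposited depth, and the expected shares at equal depth keep that order. The Pre-IS share lay above that of T cells as well, but on 10 cells.

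**Figure D3:**
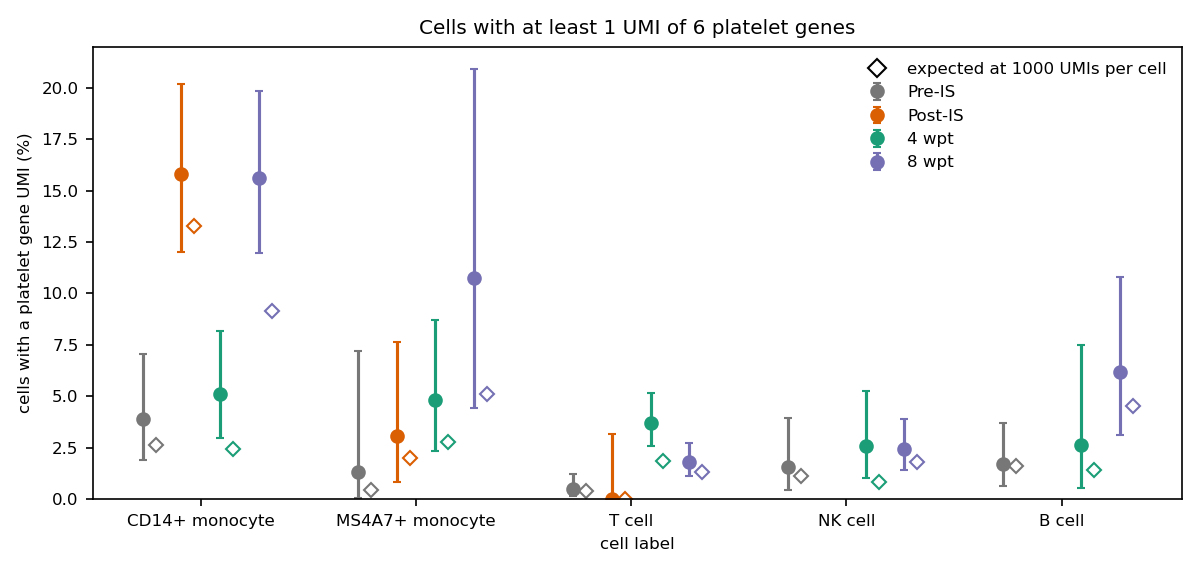
Percent of cells with at least 1 UMI of the 6 platelet genes, by cell label and library, with exact Clopper-Pearson 95% intervals. Diamonds give the expected share with each cell thinned to 1000 UMIs. CD14+ monocytes of Post-IS and 8 wpt, at 15.8% and 15.6%, stand above the T cells of the same libraries, and those of 4 wpt, at 5.13%, lie near the T cells, at 3.71%.

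THBS1 was found in 1.17% of CD14+ monocytes in Pre-IS, 8.21% (5.48 to 11.7) in Post-IS, 16.3% (12.4 to 20.9) at 4 wpt and 4.62% (2.67 to 7.40) at 8 wpt. T cells gave 0.238%, 0%, 0.112% and 0.256% in that order. At 1000 UMIs per cell the CD14+ shares were 1.00%, 6.23%, 8.77% and 2.29%, so the THBS1 share at 4 wpt stood far above that of T cells, where the thinned value was 0.0334%. RGS18 was found in 28.9%, 29.5%, 49.0% and 48.3% of CD14+ monocytes. At 1000 UMIs per cell that came to 15.1%, 21.1%, 18.5% and 21.7%, lowest in Pre-IS, with no interval for these expected shares. T cells held RGS18 in at most 1.11% of cells, at 8 wpt.

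Within a library the contrast between labels was taken over lymphocytes (T, NK, B, Naive B and Proliferating NK/T cells pooled). The platelet gene sum in CD14+ monocytes was 1.34 times that of lymphocytes in Pre-IS (0.684 to 2.47) and 1.31 times at 4 wpt (0.847 to 1.98), and both intervals hold 1. Of the 49 Pre-IS lymphocyte UMIs 21 came from 1 cell labelled B cell, and without it the Pre-IS ratio was 2.34 (1.14 to 4.605), an interval above 1. Without the top lymphocyte at 4 wpt, with 11 of 102 UMIs, the ratio was 1.47 (0.943 to 2.23). It was at least 17.4-fold higher in Post-IS, where no UMI was found in 139 lymphocytes, and 5.36-fold higher at 8 wpt (4.33 to 6.64), or 7.48-fold (5.91 to 9.51) without 1 lymphocyte that held 44 of 155 UMIs. THBS1 in CD14+ monocytes was 54.8-fold higher than in lymphocytes at 4 wpt (25.5 to 140) and 3.04-fold higher at 8 wpt (1.58 to 5.74). NK cells gave 6 of the 98 THBS1 UMIs of the library at 4 wpt, against 89 in CD14+ monocytes. At 8 wpt they gave 14 of 44, against 19 in CD14+ monocytes. In Pre-IS 3 of 8 THBS1 UMIs fell in CD14+ monocytes and the rest in lymphocytes. RGS18 was 33.9 to 59.0-fold higher than in lymphocytes in the 4 libraries, on 1 lymphocyte UMI in Post-IS. At 4 wpt the ratio to lymphocytes was therefore far above 1 for THBS1 and RGS18, and its interval held 1 for the platelet genes.

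MS4A7+ monocytes, the other monocyte label, shared RGS18 but not THBS1. RGS18 stood there at 280 CPM in Pre-IS, 305 in Post-IS, 405 at 4 wpt and 295 at 8 wpt. THBS1 gave 0, 0, 1 and 0 UMIs in 75, 131, 207 and 65 cells. By the exact interval a count of 0 allows up to 36.9 CPM in Pre-IS, 26.8 in Post-IS and 25.3 at 8 wpt. In CD14+ monocytes THBS1 was at least 4.41-fold higher than in MS4A7+ monocytes in Post-IS, and 36.1-fold higher at 4 wpt (6.31 to 1441), on 1 MS4A7+ UMI. The platelet gene sum in MS4A7+ monocytes was 10.0, 138, 31.5 and 82.4 CPM on 1, 19, 15 and 12 UMIs. Of the 19 Post-IS UMIs, 16 came from 1 cell, and without it the Post-IS sum was 21.8 CPM.

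Dendritic cells (spelt Dentritic in the labels) held RGS18 at 258 CPM in 30 Pre-IS cells, 250.1 CPM in 23 cells at 4 wpt and 369 CPM in 29 cells at 8 wpt. THBS1 gave 0 UMIs there in all 4 libraries, and the 6 platelet genes gave 2, 0, 0 and 0. RGS18 was thus shared by the myeloid labels. THBS1 in CD14+ monocytes stood above the pooled lymphocytes at 4 wpt and 8 wpt, and all 43 of its Post-IS UMIs fell there. NK cells held some THBS1 as well.

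B cells carried platelet genes in few cells. Their sum was 58.7 CPM (34 UMIs) in Pre-IS, 14.5 CPM (7 UMIs) at 4 wpt and 171 CPM (69 UMIs) at 8 wpt. Of these UMIs 61.8% in Pre-IS and 63.8% at 8 wpt came from 1 cell each, and without that cell the sums were 22.5 and 62.1 CPM. NK cells held 11.5, 12.4 and 31.0 CPM in the same libraries. At 41 cells, the Proliferating NK/T label held 53.5 CPM at 4 wpt, with 11 of its 17 UMIs in 1 cell. The sums in B and Proliferating NK/T cells thus rested largely on single cells.

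The share of PF4 among the chemokine UMIs was compared between labels. PF4 made up 24.0% of PPBP and PF4 UMIs in Post-IS CD14+ monocytes (16.2 to 33.4), 20% in those of 4 wpt (6.83 to 40.7) and 23.8% in those of 8 wpt (17.8 to 30.6). It made up 0 of 12 in Pre-IS, which allows up to 26.5% by the exact interval. At 8 wpt the PF4 share was 8.33% in T cells (1.75 to 22.5), 14.7% in NK cells and 44.7% in B cells (30.2 to 59.9), where 15 PF4 UMIs came from 1 cell. Without that cell it was 24% in B cells (9.36 to 45.1, 6 of 25 UMIs), near that of CD14+ monocytes. At 4 wpt it was 14.5% in T cells (6.86 to 25.8), an interval that overlaps that of CD14+ monocytes.

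Within CD14+ monocytes the platelet genes were detected together. At least 2 of the 6 genes were found in 1 cell in Pre-IS, 19 in Post-IS, 1 at 4 wpt and 21 at 8 wpt. At least 3 of the genes were found in 0, 5, 0 and 8 cells. Among Post-IS cells PF4 was found in 13 of 47 cells with PPBP (27.7%), against 4 of 282 without it (1.42%). At 8 wpt it was found in 19 of 46 cells with PPBP (41.3%), against 3 of 300 without it (1.00%). All 9 cells with TUBB1 at 8 wpt also held PPBP, and 8 of them held PF4. TREML1 stood apart at 8 wpt, where 1 of its 6 cells held PPBP and none held PF4. At 4 wpt 1 of 9 cells with PPBP held PF4 and none of the 5 cells with TREML1 held PPBP. The genes were thus found together in the libraries where their sum was high.

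In Post-IS and 8 wpt few cells carried most of the UMIs. Cells with at least 3 UMIs of the 6 genes numbered 0, 14, 2 and 24, and held 0%, 59.8%, 38.7% and 81.7% of the UMIs in CD14+ monocytes. The highest cell held 2 UMIs in Pre-IS, 10 in Post-IS, 7 at 4 wpt and 28 at 8 wpt. That 8 wpt cell had 5488 UMIs in all, among them 22 of PPBP and 244 of the monocyte marker list (CD14, LYZ, CSF1R, S100A8, S100A9, VCAN, MS4A7 and FCGR3). The next, with 22 UMIs of the 6 genes, had 2101 UMIs in all and 12 of the monocyte markers. The top 3 Post-IS cells, with 10, 9 and 7 UMIs of the 6 genes, held 38, 70 and 94 monocyte marker UMIs. Platelet and monocyte transcripts thus shared these barcodes. Cells with a UMI of the 6 genes were deeper than those without, at a median of 1366.5 against 1118 UMIs in Post-IS and 3457.5 against 2684.5 at 8 wpt.

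The cell with most platelet UMIs of all was none of these. It carried the label B cell at 8 wpt, with 1011 UMIs in all and 44 of the 6 genes, or 4.35% of the cell. They were 15 of PF4, 12 of ITGA2B, 9 of GP9, 7 of PPBP and 1 of TREML1. It also held 7 UMIs of THBS1, 39 of the other platelet genes listed and 17 of red cell markers. No UMI of the T, NK, B or monocyte markers was found in it, so its markers do not bear out its label. A Post-IS cell labelled MS4A7+ monocyte, with 548 UMIs, was similar, at 16 UMIs of the 6 genes and 1 of the monocyte markers. By contrast, the top Pre-IS cell, labelled B cell with 2291 UMIs, held 21 UMIs of the 6 genes beside 23 of the B cell markers.

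Other genes of platelets were compared between CD14+ monocytes with and without a UMI of the 6 genes, over a list of 33 genes in the table that shares none of the 6. The list held 834 CPM in Post-IS cells with such a UMI and 206 CPM in those without (70 and 75 UMIs), a ratio of 4.05 (2.88 to 5.69). At 8 wpt it held 598 CPM with and 199 CPM without (114 and 169 UMIs), a ratio of 3.005 (2.35 to 3.83). At 4 wpt the ratio was 1.81 (1.11 to 2.82), and in Pre-IS it was 2.23 (0.931 to 4.61). The list was thus higher in the cells with platelet genes in Post-IS and 8 wpt, and by a smaller ratio at 4 wpt, while the Pre-IS interval held 1. The split did not use the listed genes, but PF4V1 is among them, and reads of PF4 may have been counted to it. Depth differs between the split cells, and a platelet and a monocyte under 1 barcode cannot be told apart here from platelet transcripts in the monocyte itself.

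Single genes on that list were as follows. MPIG6B, an inhibitory receptor of megakaryocytes and platelets, gave 9 UMIs in Post-IS cells with a UMI of the 6 genes and 2 in those without, a ratio of 19.5 (4.05 to 186). NRGN, a calmodulin-binding protein abundant in platelet RNA, gave 6 and 0 UMIs and was at least 8.69-fold higher. CAVIN2, a caveolar protein, gave 6 and 2. At 8 wpt MYL9, a myosin light chain, gave 9 and 2 UMIs, a ratio of 20.045 (4.15 to 191). GP1BB, a partner of GP9, gave 7 and 0 and was at least 10.4-fold higher. GNG11, a G protein gamma subunit, gave 16 and 13 UMIs, a ratio of 5.48 (2.47 to 12.4). PF4V1, a close paralog of PF4, gave 12 and 0 at 8 wpt and was at least 17.8-fold higher, but reads of the paralogs may have been split between them in counting. F13A1, the coagulation factor XIII subunit that monocytes also make, was at 1.21 in Post-IS and 1.29 at 8 wpt. P2RY12, the ADP receptor of platelets, gave 0 UMIs in cells with and 7 in cells without in Post-IS, and 0 and 10 at 8 wpt. Those below 20 UMIs were named after their values were seen, so nothing is read from how many of the named genes were higher. F13A1 and P2RY12 did not differ beyond counting error.

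**Figure D4:**
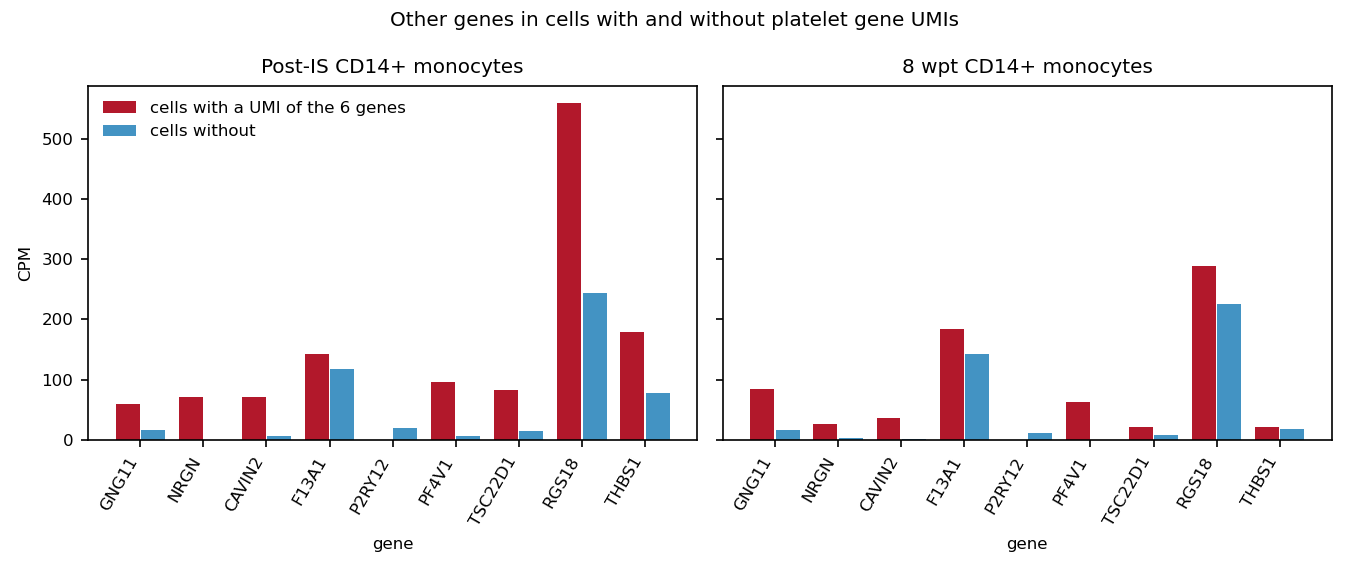
CPM of other platelet genes, RGS18 and THBS1 in CD14+ monocytes with a UMI of the 6 platelet genes (red) and without (blue), in Post-IS (left) and 8 wpt (right). Genes of the list with at least 5 UMIs in both libraries are drawn. GNG11, NRGN, CAVIN2, PF4V1 and TSC22D1 are higher with, F13A1 differs little, and P2RY12 is at 0 in the cells with.

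LYZ, CD14 and VCAN differed less than the list of other platelet genes between the same cells, while FCGR3 was lower in those with platelet genes. LYZ, lysozyme, stood at a ratio of 1.29 in Post-IS and 1.07 at 8 wpt, CD14 at 1.14 and 0.889, and VCAN, versican, at 1.40 and 1.30. S100A9, a calcium-binding protein of classical monocytes, stood at 2.20 and 1.37. FCGR3, an Fc receptor of nonclassical monocytes, stood at 0.383 and 0.336, and TIMP1, a metalloprotease inhibitor, at 0.574 and 0.673. Among the genes with at least 20 UMIs, 3.73% in Post-IS and 3.36% at 8 wpt were at least 2-fold higher in cells with platelet genes. The 5 with the largest ratio in Post-IS were DENND4A (4.13), HIST1H2AC (4.03), SLC40A1 (3.83), LACTB (3.67) and KDM7A (3.58). Red cell markers were 1.57-fold higher in the Post-IS cells with platelet genes (1.15 to 2.10), and 1.45-fold at 8 wpt (1.15 to 1.81). Their part in the result was not tested.

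RGS18 and THBS1 were partly shared with the platelet genes. RGS18 was 2.29-fold higher in Post-IS cells with a UMI of the 6 genes than in those without (1.58 to 3.30), and 1.28-fold at 8 wpt. THBS1 was 2.33-fold higher in Post-IS (1.16 to 4.51), where 19.2% of cells with a platelet gene held THBS1, against 6.14% of those without. At 8 wpt the THBS1 ratio was 1.19, and 5.56% of cells with a platelet gene held it, against 4.45% of those without. At 4 wpt, where THBS1 was most often found, 45 of its 51 cells held no UMI of the 6 genes, and in Post-IS 17 of 27 held none. Most cells with THBS1 thus had no platelet gene UMI in either library.

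Genes of classical monocytes were higher in cells with THBS1. In Post-IS CD14+ monocytes with a THBS1 UMI, S100A8 was 2.17-fold higher than in those without, S100A9 2.52-fold, LYZ 1.52-fold and VCAN 1.46-fold. CSF3R, the G-CSF receptor, was 2.32-fold higher and CD163, a scavenger receptor, 1.76-fold. FCGR3 gave 0 UMIs in cells with THBS1 and 74 in those without. TIMP1 stood at a ratio of 0.235, PTGS2, the inducible cyclooxygenase, at 0.193, and S100A10, a partner of annexin A2, at 0.753. At 4 wpt S100A8 was 2.01-fold higher in cells with THBS1, S100A9 2.70-fold and VCAN 1.501-fold, and FCGR3 stood at 0.214. At 8 wpt S100A8 was 2.09-fold and S100A9 2.86-fold higher. The calprotectin genes S100A8 and S100A9 were thus higher in cells with THBS1 in each of these libraries. Median depth was 1395 UMIs in cells with THBS1 and 1182.5 in those without in Post-IS, and 2951 and 3312 at 4 wpt. Red cell markers stood at 371 CPM in 4 wpt cells with THBS1 and 2107 CPM in those without, and their part in the result was not tested. The 5 genes with the largest ratio in Post-IS were SOCS3 (5.03), AGTPBP1 (4.82), CCNL2 (4.13), HIST1H2AC (4.06) and MEGF9 (3.92).

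Platelet genes in the cells with THBS1 depended on the library. PPBP was 3.49-fold higher in Post-IS (2.01 to 5.84) and PF4 3.75-fold (1.32 to 9.41). At 4 wpt the PPBP ratio was 2.68 (0.845 to 7.44), on 6 UMIs with and 14 without. At 8 wpt it was 9.51 (6.38 to 13.9), on 38 and 103 UMIs, but only 3 cells held both THBS1 and a platelet gene. Of those 38 UMIs, 22 came from a single cell and 11 from another. The list of other platelet genes stood at 3.19 in Post-IS (2.12 to 4.68), 1.10 at 4 wpt (0.739 to 1.59), and again higher at 8 wpt, at 4.37 (3.06 to 6.10). The cell with 22 PPBP UMIs held 11 UMIs of that list, and the cell with 11 held 19. The 8 wpt value of the list thus also rested on few cells. At 4 wpt, then, cells with THBS1 held other platelet genes at about the level of cells without.

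Genes of related functions in CD14+ monocytes were read from lists chosen with earlier results known. Of the 5 thrombospondin family genes in the table only THBS1 reached 20 UMIs in Post-IS and Pre-IS together. Among 7 measured receptors and partners of thrombospondin, none was 2-fold higher or lower in Post-IS than in Pre-IS, with a median log2 ratio of -0.02 against 0.04 for all genes. Of all measured genes 5.55% were higher and 4.13% lower in that contrast. CD47, the receptor that also signals to phagocytes, stood at 1.60 (1.26 to 2.05). At 8 wpt over 4 wpt, 1 of 10 was higher, the scavenger receptor CD36 at 2.55, against 2.44% of all genes. Among 8 measured receptors by which leukocytes bind platelets, none passed 2-fold in Post-IS over Pre-IS, with a median of 0.17. SELPLG, the ligand of P-selectin, stood at 1.44 (1.09 to 1.92) and ITGAM, the alpha chain of the integrin Mac-1, at 1.32 (1.03 to 1.69). With such shares over all genes, few calls are due in lists of this size, so nothing is read from these counts. The platelet genes were chosen with these contrasts known, so the binding partners are not ranked against them.

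The coagulation and activation lists are given next. Of 6 measured coagulation and fibrinolysis genes of monocytes 3 were higher in Post-IS than in Pre-IS and none lower, against 5.55% and 4.13% of all genes. They were the urokinase receptor gene PLAUR (2.54, 1.27 to 5.36), THBD, which encodes thrombomodulin (2.44, 1.498 to 4.08), and TFPI, the tissue factor pathway inhibitor (2.18, 1.09 to 4.54). Of 11 measured activation genes 5 were higher and none lower, against the same 5.55% and 4.13%, with a median log2 ratio of 0.91 against 0.04 for all genes. The 5 were TNFAIP3 (3.97), TIMP1 (3.78), PTGS2 (3.56), CD163 (2.29) and G0S2 (2.06). At 4 wpt 4 of the 11 were lower than in Post-IS, against 5.23% of all genes, with PTGS2 at 0.0524 and G0S2 at 0.155, while THBS1 stood at 0.790. Of 4 measured megakaryocyte transcription factors ZFPM1 (3.05, on 15 Post-IS and 6 Pre-IS UMIs) and RUNX1 (2.004) were higher in Post-IS, and NFE2 stood at 0.626. Of the 33 other platelet genes only GNG11 (1.12) and F13A1 (1.22) reached 20 UMIs, and 13 of the 33 were detected in Pre-IS, 22 in Post-IS, 13 at 4 wpt and 25 at 8 wpt. Their sum was 162, 323, 194 and 272 CPM, high in the same libraries as the 6 genes.

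Over the 20 combinations of label and library with at least 50 cells, Pearson's r of log2(CPM + 10) was used as a description of likeness. These points share libraries and differ in depth. PPBP was most like PF4 (r = 0.874), followed by ATP6V1D (0.798), MORF4L2 (0.795), SNX3 (0.726) and MYDGF (0.725). THBS1 was most like FLT3 (0.891), ARG2 (0.816), PLAUR (0.810), FCAR (0.807) and GK5 (0.804). FLT3 is on the list of dendritic markers, and dendritic cells, which held no THBS1 UMI, were too few to enter. In CD14+ monocytes FLT3 stood at only 7.30 to 20.1 CPM. Between members, THBS1 had r = 0.516 with PPBP and 0.356 with RGS18, and TUBB1 had r = 0.817 with PPBP.

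The 12 cells labelled Platelet, all at 4 wpt, held few of the platelet genes. They were shallow, at 10857 UMIs in all and a median of 832 per cell (764 to 1407), against 3558 in the other cells of the library. PPBP gave 3 UMIs in 2 of the 12 cells, RGS18 12 UMIs in 7 cells and THBS1 1 UMI. PF4, GP9, ITGA2B, TUBB1 and TREML1 were at 0 in all 12, which allows up to 340 CPM by the exact interval. PPBP stood at 276 CPM (57.0 to 808), above the 17.0 CPM (10.4 to 26.3) of CD14+ monocytes in the library, though on 3 UMIs. RGS18 stood at 1105 CPM (571 to 1931), against 206 CPM in CD14+ monocytes. A UMI of the 6 genes was found in 16.7% of these cells (2.09 to 48.4), and 5 of the 33 other platelet genes were detected. The list of other platelet genes stood at 1382 CPM on 15 UMIs, against 194 CPM in CD14+ monocytes and 104 CPM in lymphocytes at 4 wpt. Of those 15 UMIs 11 were of CLU, and SELP, CAVIN2, VWF and TBXA2R gave 1 each. The UMIs of members and of that list in these cells were thus mainly of CLU and RGS18, with 3 of PPBP. The megakaryocyte transcription factors stood at 1289 CPM on 14 UMIs, among them 7 of NFE2, 5 of FLI1 and 1 of GATA1. At 4 wpt they stood at 322 CPM in CD14+ monocytes and 192 CPM in lymphocytes. RGS18 was also found in every myeloid label, so it does not mark platelets here. Of the 6 platelet genes 5 were at 0, and the depth of these cells leaves wide limits.

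Other genes led these cells. Among 360 genes with at least 5 UMIs in at least 3 of the 12 cells, a rule chosen after the values were seen and leaving out genes without a symbol, those with the highest level relative to all other 4 wpt cells were named. CPA3, a carboxypeptidase of mast cell granules, gave 19 UMIs in 6 of the 12 cells, against 3 in all other cells of the library. MS4A2, the beta chain of the high-affinity IgE receptor, gave 19 UMIs in 8 cells, against 27 in the other cells. GATA2, a transcription factor of early blood cells, gave 14 against 9, and the cytokine gene IL4 gave 6 against 3. GCSAML gave 10 against 2, SFRP4, a secreted Wnt-binding protein, 5 against 0, RHEX 5 against 7, and CLU, a secreted chaperone that platelets also carry, 11 against 21. FIG4, a lipid phosphatase, gave 18 against 140 and LILRA3, a soluble immunoglobulin-like receptor, 9 against 79. FCER1A, the alpha chain of the IgE receptor, ranked next, with 11 UMIs in 8 cells, against 106. In other libraries CPA3 gave 1 UMI in Pre-IS and 0 in Post-IS and 8 wpt.

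Cell by cell, 8 of the 12 held between 5 and 9 of the 10 named genes and 1 held a single one. That cell held 48 UMIs of the monocyte marker list, all of S100A8 or S100A9, beside 9 UMIs of the neutrophil markers. The rest of the monocyte list, CD14 and LYZ among them, was at 0 in all 12 cells. The other 3 held none of the 10, and gave 9, 13 and 5 UMIs of the NK markers. The PPBP UMIs fell in cells with 5 and 7 of the named genes, and the THBS1 UMI in 1 of the 3 cells with none. Every CLU UMI fell in a cell that also held MS4A2. Ribosomal protein genes took 16.7% of the UMIs in the 12 cells, against 24.5% in the other 4 wpt cells. The cells are called here by their label and their leading genes CPA3 and MS4A2, and are given no other name.

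**Figure D5:**
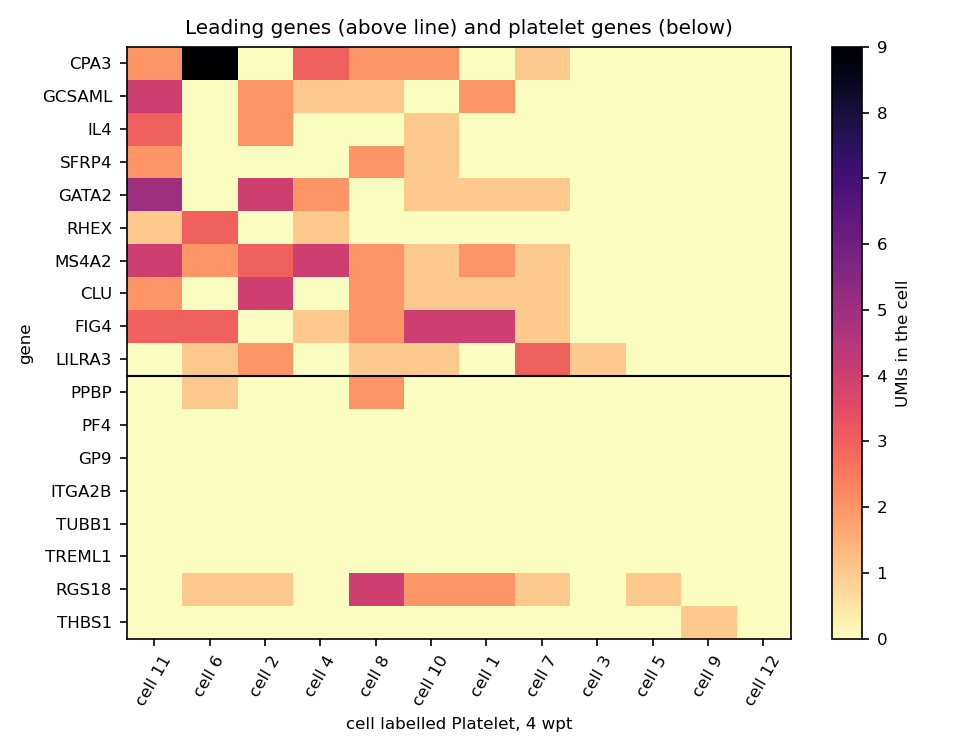
UMIs of the 10 leading genes and of the 8 platelet and thrombospondin genes in each of the 12 cells labelled Platelet at 4 wpt. Cells 5, 9 and 12 hold none of the leading genes, and of the 8 genes only PPBP, RGS18 and THBS1 have a UMI.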

How the data were processed

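The deposited tables of the 4 libraries (peripheral blood mononuclear cells) hold UMI counts per gene and barcode as the authors obtained them, whole numbers with no normalisation, and a cell type label per barcode. The build Mmul_10 and the tools Seurat 3.2.3 and Cell Ranger 3.1.0 are listed in the submitters' processing notes. How cells and genes were filtered, whether doublets were removed and how labels were made are not given in the sources used here, and no cell was removed here. A RefSeq table of gene names gave symbols to 404 of the 2559 rows that carry only an identifier.

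Counts were summed per label and library with Python 3.11.15, numpy 2.4.6 and scipy 1.17.1. Levels have exact Poisson, ratios exact conditional binomial and shares exact Clopper-Pearson 95% intervals, and 0 was given a floor of 3 counts. UMIs cluster in few cells, so intervals of levels and ratios are too narrow. Genes were measured with at least 20 UMIs over both libraries, in labels of at least 50 cells. Alternatives included TMM factors (edgeR 4.0.16 in R 4.3.3, used for scaling only). The ratio step was tested on simulated data.

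The text names all 8 members, list genes with at least 20 UMIs (up to 5 with the largest ratio), and the 5 genes most like PPBP or THBS1 or highest in Post-IS cells with these genes. Genes outside that rule, among them those of the split cells below 20 UMIs and those that lead the cells labelled Platelet, were chosen after their values were seen. The members, lists and comparisons were chosen with earlier results of these data known.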

Additional observations from a re-analysis of the deposited data

How the results depend on the processing

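Of 110 recomputed values, 90 stayed within their interval or count limit and 20 moved beyond it. Those that stayed include every value under TMM and median-of-ratios scaling, totals without ribosomal protein, mitochondrial, hemoglobin and immunoglobulin genes, and possible doublets left out. Counting RGS18 as a platelet gene moved the log2 ratios of the sum in CD14+ monocytes to 1.63 from a main value of 3.41 (Post-IS over Pre-IS), to -1.31 against -3.37 (4 wpt over Post-IS) and to 0.91 against 2.92 (8 wpt over 4 wpt). It moved the shares of cells to 30.9% in Pre-IS, 37.1% in Post-IS, 51.0% at 4 wpt and 54.9% at 8 wpt. RGS18 UMIs outnumber those of the 6 genes in CD14+ monocytes of each library. Thinning to 1000 UMIs moved the shares to 2.42% at 4 wpt and 9.15% at 8 wpt, and turned the THBS1 log2 ratio of 4 wpt over Post-IS to 0.36 against -0.34. Weighting cells equally turned it to 0.04. These 2 were the only ratios that changed sign, and no direction is given for it. The THBS1 ratio of Post-IS over Pre-IS ranged between 8.63 (thinned) and 24.5 (without the cell with most UMIs). Members past 2-fold numbered 5 with no UMI minimum and 1 with a minimum of 50 UMIs in Post-IS over Pre-IS (main 3), and 4 and 1 in 4 wpt over Post-IS (main 2). In 8 wpt over Post-IS they numbered 2 with no minimum and 2 at 1.5-fold (main 1). Leaving out the top cell, added after the data were seen, moved the sum in B cells to 22.5 CPM in Pre-IS and 62.1 CPM at 8 wpt, and that in Post-IS MS4A7+ monocytes to 21.8 CPM. Leaving out the top lymphocyte, also added later, moved the ratio of CD14+ monocytes to lymphocytes to 7.48 at 8 wpt. In Pre-IS it gave 2.34, still within the main interval of 0.684 to 2.47, though its own interval lay above 1. No paired analysis was possible because each group was 1 library. Depth limits GP9, ITGA2B, TUBB1 and TREML1, and all genes in Post-IS lymphocytes and the 12 cells labelled Platelet.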
